A study of Mus musculus with 8 samples.

Results

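The DNA replication and repair genes examined here are 48 genes whose products copy the genome and keep the copy intact, taken from a given list of gene symbols and measured in sorted mouse CD4+ T cells on 8 Affymetrix arrays. For each gene the probe set with the highest mean log2 intensity over the 8 arrays was used, and all 48 had one, out of 18193 genes with a probe set that names a single gene. The mice were hemizygous males whose X-linked Foxp3 allele carried an EGFP reporter, either on the wild-type allele (WT) or on a mutant allele (delta). CD4+ cells of each kind of mouse were sorted into EGFP+ cells, which express the tagged allele, and EGFP- cells. The 4 groups were thus WT EGFP+ (3 arrays), delta EGFP+ (3 arrays), WT EGFP- (1 array) and delta EGFP- (1 array). All groups share the tagged Foxp3 locus and the CD4+ sort. The sources used here do not give strain, age, organ of origin or the number of animals behind an array, so p-values measure the spread between these arrays, which may be technical. Replicates are numbered 1 to 3 in accession order, which only names them.

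Foxp3 is the lineage factor of regulatory T cells. A cell that divides first licenses its replication origins, by loading the Mcm helicase with the help of Orc, Cdc6 and Cdt1, and then fires them by adding Cdc45 and the Gins complex. Polymerases alpha, delta and epsilon copy the strands, while the sliding clamp Pcna, its loaders, flap endonuclease and ligase finish the lagging strand, and a set of enzymes supplies the deoxynucleotides. Most of these genes are transcribed as cells pass from G1 into S phase, under E2F transcription factors that cyclin E with its kinase helps to release from the retinoblastoma protein. In T cells this set is known to be low at rest and high during clonal expansion.

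Many promoters of this set are known to carry E2F elements, and the bases around them are shown for members on which the results below turn. RefSeq windows of 300 bases (250 before to 50 after the annotated start, build GRCm38.p6) were matched by symbol for 41 of the 48 members. Each was searched on both strands for TTTCCCGC, TTTGGCGC, TTTCGCGC and TTTGCCGC, of which TTTCGCGC and TTTGGCGC can overlap on opposite strands. Capitals mark the matched bases in each sequence, which is written 5′ to 3′ on the strand of the gene. The helicase subunits Mcm5 and Mcm6, both higher in the delta EGFP+ arrays, are shown over longer windows upstream of the start, because each holds a pair of overlapping matches on opposite strands.
Mcm5 (chr8:75109329-75109467, + strand): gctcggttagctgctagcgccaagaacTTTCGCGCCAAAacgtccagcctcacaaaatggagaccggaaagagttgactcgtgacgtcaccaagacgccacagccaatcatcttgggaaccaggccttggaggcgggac
Mcm6 (chr1:128359706-128359885, - strand): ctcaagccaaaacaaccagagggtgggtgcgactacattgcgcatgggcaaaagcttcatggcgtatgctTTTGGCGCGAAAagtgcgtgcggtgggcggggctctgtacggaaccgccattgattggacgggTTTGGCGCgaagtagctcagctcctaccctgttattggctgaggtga
Windows of 30 bases are shown for 4 further members called higher, the loading factor Cdc6, the helicase subunit Mcm3, the catalytic polymerase subunit Pola1 and the clamp loader subunit Rfc3.
Cdc6 (chr11:98908002-98908031, + strand): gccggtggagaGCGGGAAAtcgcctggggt
Mcm3 (chr1:20820265-20820294, - strand): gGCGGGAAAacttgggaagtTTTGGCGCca
Pola1 (chrX:93632275-93632304, - strand): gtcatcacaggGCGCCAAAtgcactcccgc
Rfc3 (chr5:151651195-151651224, - strand): gcacgcTTTCGCGCtcGCGGGAAAactcta
The origin subunit Orc1, the loading factor Cdt1 and the mismatch repair subunit Msh6 did not pass the test between the EGFP+ groups, and their windows hold a match too.
Orc1 (chr4:108579416-108579445, + strand): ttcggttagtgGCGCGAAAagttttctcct
Cdt1 (chr8:122568035-122568064, + strand): gggaactaccttTTTGGCGCcatggcgcaa
Msh6 (chr17:87975054-87975083, + strand): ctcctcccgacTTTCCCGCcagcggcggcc

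A match to these letters was present in 15 of the 41 members (36.6%), against 704 of 27025 genes of the table (2.6%). Promoters of the members were richer in G and C, with a median of 57.7% against 52.7% over all promoters, and among promoters at or above the members' median the share with a match was 4.13%. The share differed between roles as a plain count: 3 of 4 licensing genes, 4 of 7 helicase genes, 3 of 6 polymerase genes, 2 of 9 clamp and lagging strand genes, 0 of 5 nucleotide supply genes, 2 of 6 repair and checkpoint genes and 1 of 4 E2F and cyclin E genes. A CCAAT box, the letters bound by NF-Y, was in 24 of 41 members (58.5%) and in 41.1% of all genes. The letters TTTGAA or TTCGAA, those of the CHR element known from mitotic promoters, were in 8 of 41 members (19.5%) and in 21.7% of all genes. In a list of 30 mitosis genes, 25 with a window, the same letters were in 19 (76%) and an E2F match was in 1 (4%). These matches are descriptions of letters, and no binding was measured here.

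**Figure D1:**
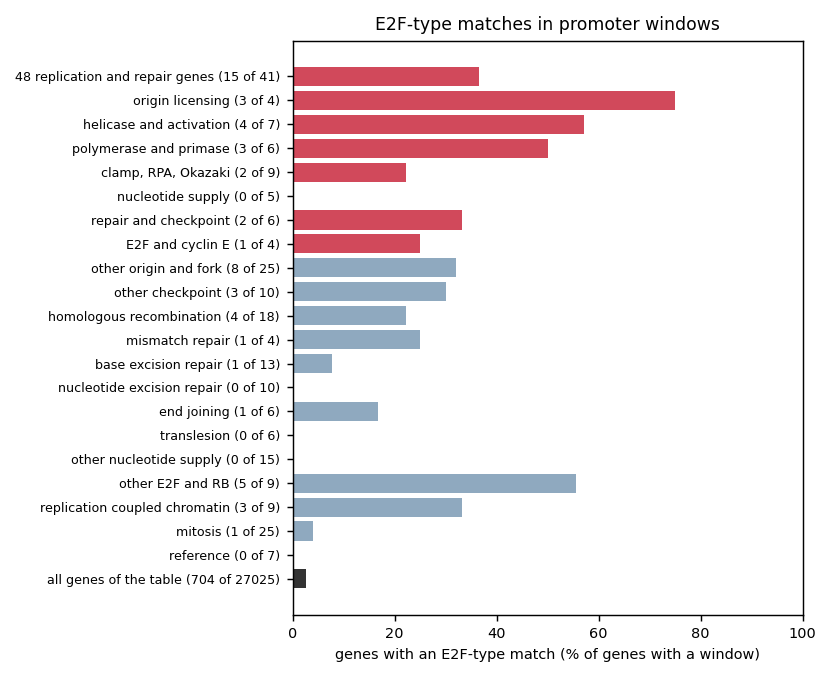
Share of genes, in percent of those with a promoter window, whose window holds an E2F-type match, for the replication and repair genes, their role groups, the other gene lists and all genes. All members together stand at 36.6%, all genes at 2.6% and the mitosis list at 4%.

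The arrays were on a common scale, with array medians between 53.3 and 54.7 intensity units, and the number of arrays limits the precision. The probe set for Foxp3 went against the labels of the WT EGFP+ arrays: it read 4.75, 4.86 and 4.64 there on the log2 intensity scale, 4.52 in the array labelled WT EGFP-, 6.14 in the one labelled delta EGFP-, and 11.10, 11.51 and 11.21 in the arrays labelled delta EGFP+. Group names below are therefore those of the labels, and every direction between alleles rests on them. CD4 T cell markers were high in every array, with a summed intensity of 34551 to 37067 in WT EGFP+ and 31446 to 33665 in delta EGFP+ over 8 of 10 measured. The 7 regulatory T cell markers, Foxp3 included, summed to 14259 to 16545 and 11663 to 15641 in these groups, to 1279 in WT EGFP- and to 5389 in delta EGFP-. The Foxp3 probe set differed by 6.52 and so adds to the delta EGFP+ sums. Because it read against the labels, it is not taken here as a change of Foxp3 expression. Of the other regulatory T cell markers, Il2ra, Nrp1 and Itgae were lower in delta EGFP+ by limma, with differences of -0.75, -1.39 and -1.73. Ctla4, Ikzf2 and Tnfrsf18 did not pass, at -0.61, -0.05 and -0.12. The T cell markers Cd5 and Cd28 were lower in delta EGFP+ too, at -0.45 and -0.66. Dividing cells of other kinds were looked for by marker lists. B cell markers summed to 236 to 362 in WT EGFP+ and 214 to 280 in delta EGFP+, with Pax5 and Blk below the median of all probe sets in every array. Immature thymocyte markers summed to 1270 to 1428 and 732 to 811, with Rag1, Rag2, Dntt, Ptcra and Arpp21 below that median in every array. The remaining gene of that list, Cd1d1, was lower in delta EGFP+, at -0.92 (limma adjusted p = 0.0017), and the others did not pass. Germinal centre B cell markers summed to 1017 to 1043 and 959 to 1047, and none of the 4 measured passed. CD8 markers reached 138 to 218 and 156 to 628, NK markers 139 to 191 and 224 to 262, and myeloid markers 390 to 1390 and 321 to 512. Cd8a read 6.36, 5.22 and 6.29 in WT EGFP+ and 8.50, 8.84 and 5.95 in delta EGFP+. Its difference of 1.81 did not pass, nor did that of Cd8b1, at 0.05. Of the 4 NK genes measured Eomes was higher in delta EGFP+, at 0.91, and Ncr1, Klre1 and Klra8 did not pass, at 0.08, 0.13 and 0.05. Plasma cell markers summed to 3693 to 5419 and 4424 to 5217. Of these 5 genes Prdm1 was higher (limma adjusted p = 0.0087), while Jchain, Sdc1, Xbp1 and Irf4 did not pass, at -2.82, -0.10, 0.21 and 0.34. The part of these lists in the results below was not tested.

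Replication and repair genes stood far higher in delta EGFP+ than in WT EGFP+ cells. Of the 48, 43 were higher and 0 lower in limma at an adjusted p under 0.05 (Benjamini-Hochberg, over 45037 probe sets), and 5 did not pass. Over all probe sets 7.35% were called higher and 5.39% lower, 12.7% in all. The median difference of the members was 1.79 on the log2 scale (range 0.22 to 3.24), against -0.01 over all probe sets. All 48 differences were above 0, and 41 members were both called and at least 2-fold higher, which held for 2.65% of all probe sets. In 47 of 48 members each delta EGFP+ array lay above each WT EGFP+ array, against 15.6% of all probe sets, and Orc1 was the exception. An exact permutation test of 3 arrays against 3 cannot go below 0.1, so single genes were tested in the model across all probe sets. In sorted bulk cells, a larger share of cells in S phase and more RNA per cell cannot be told apart.

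The mean log2 level over the 48 genes was 8.21, 7.92 and 8.40 in the WT EGFP+ arrays and 9.93, 9.87 and 10.02 in the delta EGFP+ arrays. It was 7.94 in the WT EGFP- array and 9.28 in the delta EGFP- array. The delta EGFP- array thus lay between the EGFP+ groups, and the WT EGFP- array lay at the lower end of the WT EGFP+ range. Replicate 2 of WT EGFP+ was the lowest of its group in 37 of 48 members (34.1% of all probe sets), and replicate 3 was the highest in 34 (31.2%). Replicate 2 of delta EGFP+ was the lowest of its group in 29 of 48 (33.5%). The spread of this mean was smaller in delta EGFP+ (SD 0.07, n = 3) than in WT EGFP+ (SD 0.24, n = 3), a difference that was not tested. Within both EGFP+ groups the mean of the mitosis list put the arrays in the same order, at 7.48, 6.74 and 7.89 in WT EGFP+ and 10.13, 9.92 and 10.25 in delta EGFP+.

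**Figure D2:**
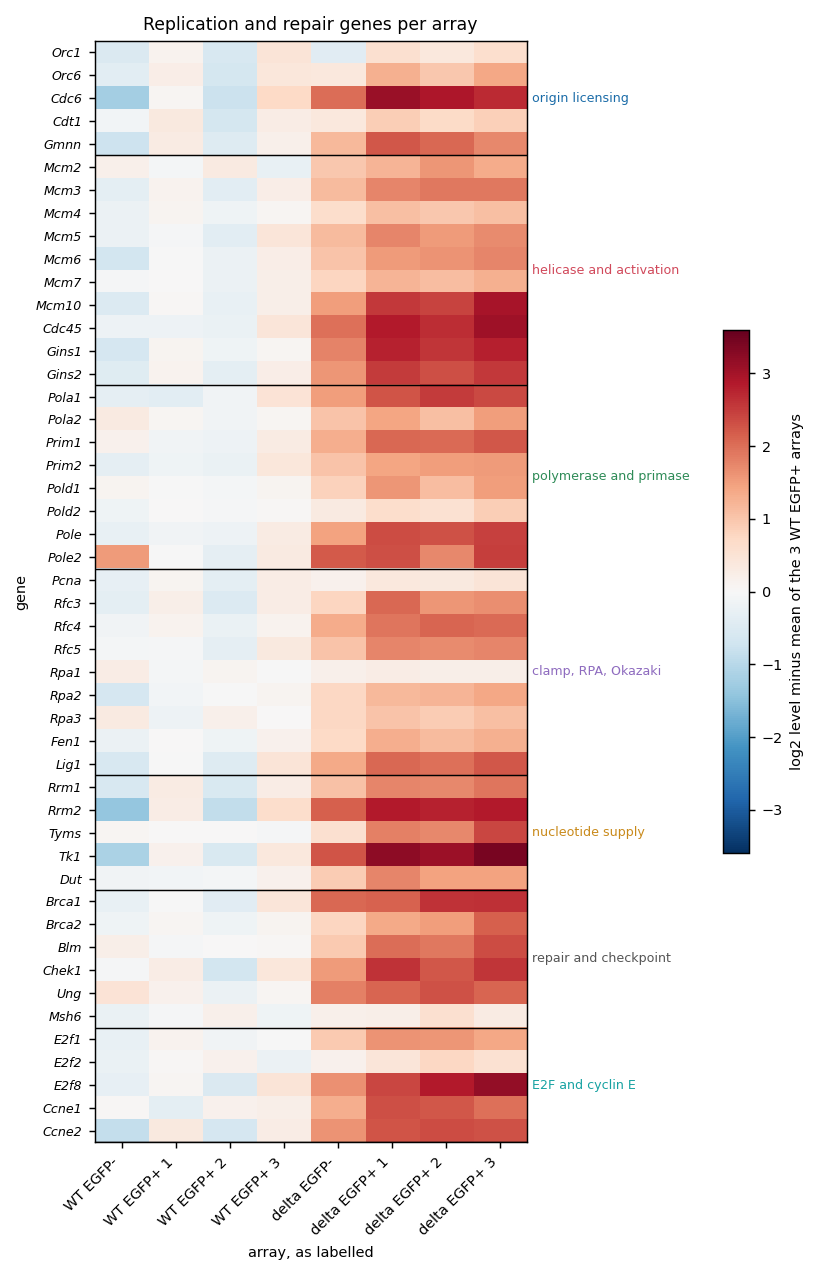
Log2 intensity of the 48 genes in each of the 8 arrays, relative to the gene's mean over the 3 WT EGFP+ arrays, grouped by role. The 3 delta EGFP+ arrays are above the 3 WT EGFP+ arrays for all members except Orc1, and the delta EGFP- array is intermediate for 43 of the 48.

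Among the 5 licensing genes, 3 were higher and 2 did not pass, with a median difference of 1.21. Cdc6, the ATPase that helps load the helicase onto origins, read 6.73, 5.89 and 7.39 in WT EGFP+, 9.78, 9.59 and 9.37 in delta EGFP+, 5.46 in WT EGFP- and 8.69 in delta EGFP-. The EGFP+ groups were far apart, with a difference of 2.91 (SE 0.34, limma adjusted p = 0.0015), a fold of 7.53. Gmnn encodes geminin, which binds Cdt1 and blocks a second round of loading, and read 9.77, 9.01 and 9.65 in WT EGFP+ and 11.70, 11.55 and 11.22 in delta EGFP+. Its groups did not overlap, and it was 4.03-fold higher (2.01, SE 0.22, limma adjusted p = 0.0012). Orc6, a subunit of the origin recognition complex, was higher by 1.21 (SE 0.27, limma adjusted p = 0.024), a call that was lost when replicate 1 of WT EGFP+ (adjusted p = 0.052) or replicate 1, 2 or 3 of delta EGFP+ (0.092, 0.051 and 0.071) was left out.

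Cdt1, the loading partner of Cdc6, read 10.99, 10.03 and 10.93 in WT EGFP+ and 11.53, 11.33 and 11.51 in delta EGFP+. The groups did not overlap, but replicate 2 of WT EGFP+ stood well below the others of its group, and the difference of 0.81 did not pass (SE 0.25, limma adjusted p = 0.079). Without that array it was 0.50 and passed (adjusted p = 0.035), as did the mean of its probe sets (0.63, adjusted p = 0.031). Of its further probe sets 1 passed, at 0.88 (SE 0.20, limma adjusted p = 0.024), and 1 at a low level did not, at 0.20. Orc1, the ATPase subunit of the origin complex, read 6.92, 6.23 and 7.26 in WT EGFP+ and 7.39, 7.18 and 7.42 in delta EGFP+. This was the one gene whose EGFP+ groups overlapped, and its difference of 0.53 did not pass (SE 0.24, limma adjusted p = 0.23). With the mean of both its probe sets the difference was 1.30 and passed (adjusted p = 0.0054).

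All 10 helicase genes were higher, with a median difference of 1.76 and a range from 1.05 to 2.86. Cdc45, which joins the Mcm ring when an origin fires, read 6.09, 6.04 and 6.71 in WT EGFP+ and 9.14, 8.94 and 9.34 in delta EGFP+. The groups were separated by more than 2 log2 units at their nearest arrays, and the gene was 7.24-fold higher (2.86, SE 0.20, limma adjusted p = 0.00022). Gins1, a subunit of the Gins complex of the same active helicase, read 6.45, 6.20 and 6.43 against 9.14, 8.94 and 9.15. Both groups were tight, and the difference of 2.72 (SE 0.12, limma adjusted p = 5.5e-05) corresponds to 6.58-fold. Mcm10, which helps activate the helicase, and the second Gins subunit Gins2 followed at 2.65 and 2.46.

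The ring subunits themselves differed by less. Mcm3, Mcm5, Mcm6, Mcm2, Mcm7 and Mcm4 were higher by 1.86, 1.67, 1.63, 1.39, 1.20 and 1.05, each past the threshold. The smallest of these was Mcm4, which read 10.36, 10.11 and 10.35 in WT EGFP+ and 11.35, 11.25 and 11.37 in delta EGFP+. Its groups did not overlap either, and it was 2.07-fold higher (1.05, SE 0.12, limma adjusted p = 0.0012). Whether ring subunits and firing factors differ in their response was not tested.

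The 8 polymerase genes were all higher, with a median of 1.80. Pola1, the catalytic subunit of polymerase alpha, read 7.14, 7.39 and 8.02 in WT EGFP+ and 9.79, 10.03 and 9.88 in delta EGFP+. It was 5.21-fold higher (2.38, SE 0.22, limma adjusted p = 0.00055), and replicate 3 was the highest of the WT EGFP+ arrays. Pole, the catalytic subunit of the leading strand polymerase epsilon, read 6.67, 6.62 and 7.08 against 9.14, 9.08 and 9.26. The groups were clearly apart, at 5.17-fold (2.37, SE 0.15, limma adjusted p = 0.00015). Pold2, the accessory subunit of polymerase delta, had the smallest difference, from 9.10, 9.05 and 9.14 to 9.72, 9.65 and 9.98. That is 1.61-fold (0.69, SE 0.12, limma adjusted p = 0.0097), with no overlap. The primase subunits Prim1 and Prim2 differed by 2.11 and 1.49, the epsilon subunit Pole2 by 2.18, and the catalytic delta subunit Pold1 and the alpha subunit Pola2 by 1.40 and 1.34.

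Of the 9 clamp and lagging strand genes 7 were higher and 2 did not pass, with a median of 1.25. Lig1, the ligase that seals Okazaki fragments, read 8.63, 8.18 and 9.10 in WT EGFP+ and 10.71, 10.63 and 10.86 in delta EGFP+. It was 4.27-fold higher (2.09, SE 0.22, limma adjusted p = 0.00096), and its WT EGFP+ arrays were spread more widely than its delta EGFP+ arrays. Rfc4, a subunit of the clamp loader, read 8.15, 7.80 and 8.16 against 9.97, 10.12 and 10.08. It was 4.06-fold higher (2.02, SE 0.13, limma adjusted p = 0.00018), beside 1.78 for Rfc3 and 1.74 for Rfc5 of the same complex. The flap endonuclease Fen1 differed by 1.24.

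Pcna, the sliding clamp, was bright in every array: 12.98, 12.54 and 13.14 in WT EGFP+ and 13.28, 13.23 and 13.35 in delta EGFP+. Each delta EGFP+ array was above each WT EGFP+ array, but by 0.40 on average, and this did not pass (SE 0.16, limma adjusted p = 0.17). Rpa1, the large subunit of the protein that coats single-stranded DNA, read 12.09, 12.27 and 12.14 against 12.43, 12.38 and 12.37. Its difference of 0.22 was the smallest of the 48 and did not pass (SE 0.10, limma adjusted p = 0.25), whereas its smaller partners Rpa2 and Rpa3 were higher by 1.25 and 1.01. A further probe set of Rpa1 gave 0.41 (SE 0.11, limma adjusted p = 0.046).

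All 5 nucleotide supply genes were higher, with a median of 1.98. Tk1, the thymidine kinase of dividing cells, showed the largest difference of the 48: it read 7.71, 7.02 and 7.95 in WT EGFP+ and 10.78, 10.64 and 10.98 in delta EGFP+. The groups lay far apart, at 9.46-fold (3.24, SE 0.23, limma adjusted p = 0.00024). Rrm2, the S-phase subunit of ribonucleotide reductase, read 9.30, 8.15 and 9.66 against 11.89, 11.82 and 11.90. Delta EGFP+ arrays were nearly level while WT EGFP+ arrays were spread, with replicate 2 lowest, and the difference was 7.13-fold (2.83, SE 0.34, limma adjusted p = 0.0018). Its partner subunit Rrm1 differed by 1.81. Dut, the dUTPase that keeps uracil out of DNA, read 9.42, 9.46 and 9.68 against 11.28, 10.97 and 10.98. It had the smallest difference of its role, 2.95-fold (1.56, SE 0.13, limma adjusted p = 0.00043), again with no overlap.

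Tyms, thymidylate synthase, was near the lower end of the array's range. It read 4.41, 4.42 and 4.36 in WT EGFP+, 6.21, 6.12 and 6.80 in delta EGFP+, 4.48 in WT EGFP- and 4.97 in delta EGFP-. The EGFP+ groups did not overlap, and the difference was 1.98 (SE 0.18, limma adjusted p = 0.00055). No fold is given, because the WT EGFP+ mean lay below the median of all probe sets (5.76) and low intensities carry no detection call here. Its further probe sets differed by -0.07, 0.21 and 1.29, of which the last was called.

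In the repair and checkpoint group 5 of 6 were higher, with a median of 2.12. Chek1, the kinase that halts the cycle when forks stall, read 6.59, 5.66 and 6.72 in WT EGFP+ and 8.92, 8.55 and 8.90 in delta EGFP+. It was 5.54-fold higher (2.47, SE 0.27, limma adjusted p = 0.0012), with replicate 2 the lowest array of both groups. Brca1, needed for repair by homologous recombination, read 5.81, 5.42 and 6.25 against 7.96, 8.44 and 8.46. The groups did not overlap, and the gene was 5.5-fold higher (2.46, SE 0.23, limma adjusted p = 0.00063). The uracil glycosylase Ung, the helicase Blm and the recombination gene Brca2 differed by 2.16, 2.08 and 1.68. Msh6, part of the mismatch sensor, read 9.08, 9.31 and 8.98 against 9.33, 9.70 and 9.43. Although the groups just failed to overlap, the difference of 0.36 did not pass (SE 0.14, limma adjusted p = 0.16).

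The 5 E2F and cyclin E genes were all higher, with a median of 2.18. E2f8, an E2F family member that represses and is itself an E2F target, read 6.02, 5.44 and 6.43 in WT EGFP+ and 8.36, 8.81 and 9.13 in delta EGFP+. It was 6.99-fold higher (2.81, SE 0.28, limma adjusted p = 0.00078). Ccne2, encoding a cyclin E, read 5.55, 4.60 and 5.47 against 7.47, 7.56 and 7.51. Its WT EGFP+ mean lay below the median of all probe sets, so the difference of 2.30 (SE 0.24, limma adjusted p = 0.00094) is given with no fold, while Ccne1 was 4.52-fold higher (2.18). The activator E2f1 was higher by 1.53.

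E2f2, another activator, had the smallest difference of its role. It read 8.44, 8.56 and 8.20 in WT EGFP+ and 8.83, 9.14 and 8.94 in delta EGFP+. The groups did not overlap, and the difference of 0.57 passed (SE 0.14, limma adjusted p = 0.035). The call was lost without replicate 1 or 3 of WT EGFP+ (adjusted p = 0.094 and 0.11) and without replicate 1, 2 or 3 of delta EGFP+ (0.061, 0.12 and 0.077).

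**Figure D3:**
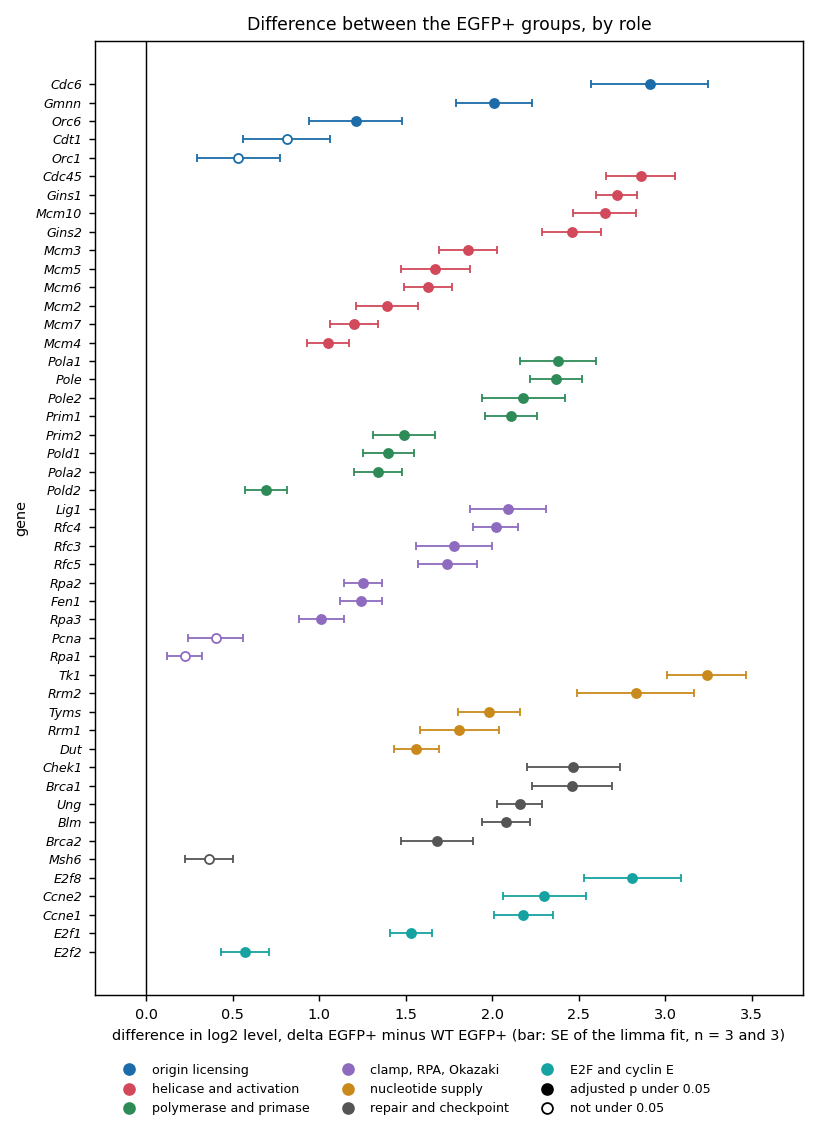
Difference of mean log2 intensity, delta EGFP+ minus WT EGFP+ (3 arrays each), for each of the 48 genes by role, with the standard error of the fit. All points lie above 0, from 0.22 for Rpa1 to 3.24 for Tk1, and the 5 genes that did not pass the threshold are drawn open.

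Other probe sets of the same genes were read on the same arrays, and their place on the transcript was not examined. In all, 33 members had 54 further probe sets, of which 38 were called higher, 0 lower and 16 neither, and 14 of those 16 were below the median level of all probe sets. For 20 members every further probe set was called higher. Those of Cdc45, Pola1, Prim2, Rrm1, Tyms and Brca1 included a probe set with a difference below 0, between -0.01 and -0.07, none of them called.

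WT EGFP+ cells were also compared with the single WT EGFP- array, with the spread of the replicated groups assumed for that array. In limma 0 of the 48 members passed (background 1.1%), while 8 were higher and 2 lower at an unadjusted p under 0.05, beside 4.84% and 4.57% of all probe sets. The median difference was 0.25, or 0.11 without replicate 3 of WT EGFP+ and 0.37 without replicate 2. Of the 48 differences 37 were above 0. In 21 members the WT EGFP- array was below all 3 WT EGFP+ arrays (25.3% of all probe sets), and in 8 it was above them (27.8%). The largest difference above 0 was that of Rrm2, at 1.39 (SE 0.48, limma adjusted p = 0.39), with 7.64 in WT EGFP- against 9.30, 8.15 and 9.66.

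No share of all probe sets is given for the settings with arrays left out, so the counts in those settings have no background. The result moved with replicate 2 of WT EGFP+, which was the lowest of its group in 37 of 48 members. Without it 5 members passed, all higher in EGFP+ cells: Rrm2 by 1.83 (limma adjusted p = 0.0045), Cdc6 by 1.60 (0.032), Tk1 by 1.40 (0.014), Ccne2 by 1.17 (0.011) and Rrm1 by 0.88 (0.041). Without both this array and replicate 3 of delta EGFP+, 7 passed, the same 5 with Gmnn higher and Pole2 lower. Pole2, an accessory subunit of polymerase epsilon, went the other way from its catalytic partner: it read 9.17 in WT EGFP- against 7.62, 7.31 and 7.96 in WT EGFP+, a difference of -1.53 (SE 0.33, limma adjusted p = 0.12). Pole read 6.52 in WT EGFP-, below each WT EGFP+ array. The further probe set of Pole2 lay far lower on the array, at a mean of 4.53, and was higher by 0.87 in delta EGFP+ than in WT EGFP+.

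Delta EGFP+ cells against the single delta EGFP- array gave 0 of 48 in limma (background 0.0755%), with 29 higher and 0 lower at an unadjusted p under 0.05, beside 4.69% and 5.03% of all probe sets. The median difference was 0.68, and 47 were above 0. The delta EGFP- array lay below all 3 delta EGFP+ arrays in 47 of 48 members, against 29.5% of all probe sets, with Pole2 the exception at 9.84 against 9.95, 9.35 and 10.13. The largest differences were those of Tyms, at 1.41 (SE 0.26, limma adjusted p = 0.14), and E2f8, at 1.17 (SE 0.39, limma adjusted p = 0.41). Without the same 2 arrays Tyms passed (1.19, adjusted p = 0.037). With the mean of all probe sets of a gene, Blm passed (1.15, adjusted p = 0.048).

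The same array lay above all 3 WT EGFP+ arrays in 44 of 48 members, against 30.5% of all probe sets, and the exceptions were Orc1, Orc6, Pcna and Msh6. In 43 members it was between the EGFP+ groups, which held for 6.14% of all probe sets. CD8 and NK markers summed to 559 and 545 there, against 282 and 159 in the WT EGFP- array. Within these lists Cd8a, Eomes and Ncr1 read higher, at 8.52, 8.73 and 6.41 against 6.28, 6.25 and 5.37. Cd8b1 and Klre1 read lower, at 7.59 and 4.56 against 7.67 and 4.89, and Klra8 read 3.76 against 3.65. The part of these markers in the level of the replication genes was not tested.

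**Figure D4:**
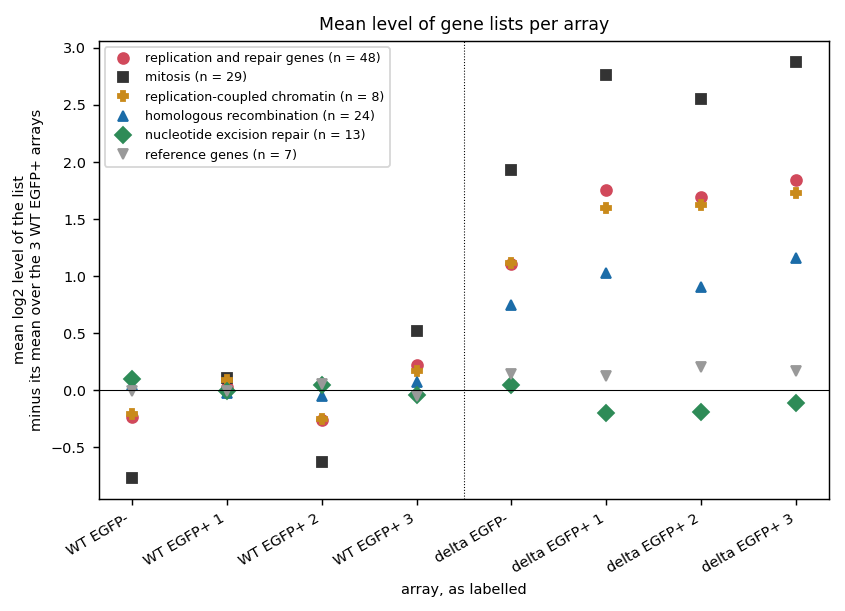
Mean log2 intensity per array of the replication and repair genes and of 5 other lists, each minus its own mean over the 3 WT EGFP+ arrays, with 1 point per list and array. Before that subtraction the replication and repair genes stand at 7.92 to 8.40 in WT EGFP+, 9.87 to 10.02 in delta EGFP+, 7.94 in WT EGFP- and 9.28 in delta EGFP-.

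Whether the EGFP+ to EGFP- difference itself differed between alleles was tested by the interaction, which rests on the pair of single arrays. In limma 0 of 48 passed (background 0.04%), with 6 above 0 and 0 below at an unadjusted p under 0.05, beside 2.66% and 3.48% of all probe sets. The median of 0.41 became 0.27 without replicate 2 of WT EGFP+ and 0.52 without replicate 3. The smallest adjusted p belonged to Blm, the helicase that dissolves recombination intermediates, with an interaction of 1.35 (SE 0.28, limma adjusted p = 0.31). Blm read 6.83 in WT EGFP- and 6.59, 6.63 and 6.66 in WT EGFP+, then 7.56 in delta EGFP- and 8.64, 8.52 and 8.97 in delta EGFP+. For 7 members, Pola2, Pold1, Rpa1, Rpa3, Tyms, Blm and Ung, every WT EGFP+ array lay below the WT EGFP- array and every delta EGFP+ array above the delta EGFP- array. That pattern held for 5.85% of all probe sets, and none of the 7 passed the interaction test.

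Between the EGFP- arrays, delta against WT, there is 1 array a side and no replicate check. Here 29 of 48 members were at least 2-fold higher and 0 at least 2-fold lower, against 2.82% and 1.72% of all probe sets. Among 18193 genes with 1 probe set each, 688 were at least 2-fold higher and 189 at least 2-fold lower. The median difference of the members was 1.22, from -0.08 for Rpa1 to 3.54 for Rrm2. Of the 48 differences 47 were above 0, against 48.3% of all probe sets. Rrm2 read 7.64 in the WT and 11.18 in the delta array, Tk1 6.43 and 9.83, Cdc6 5.46 and 8.69, and Brca1 5.55 and 7.89. The differences between the EGFP- arrays and those between the EGFP+ groups share no array. Across the 48 genes they had a Pearson correlation of 0.85 and a Spearman correlation of 0.85, against a Pearson correlation of 0.65 over all 45037 probe sets. Genes are not independent replicates, and no p is given. The difference between the EGFP- arrays was the smaller in 40 of 48 members, against 23182 of 45037 probe sets. This is the same count as that of interactions above 0, and 0 of 48 passed that test.

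**Figure D5:**
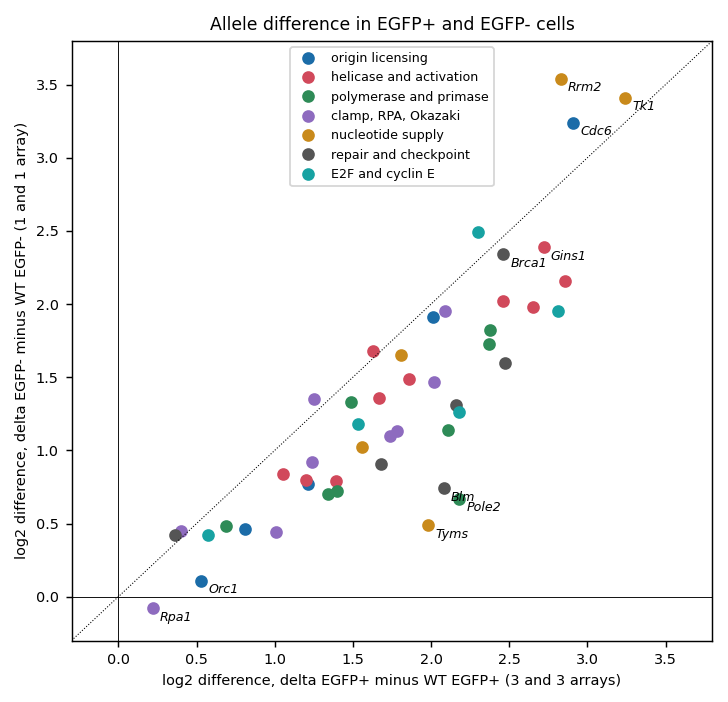
Difference in log2 intensity between delta and WT for each of the 48 genes, with EGFP+ cells (means of 3 arrays) on one axis and the single EGFP- arrays on the other. Points run along a common direction (Pearson correlation 0.85, n = 48 genes). The difference is smaller in the EGFP- arrays for 40 of them, and none passed the interaction test.

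Genes beside the 48 in the same processes were taken from lists by function, with 147 genes measured, and compared between the EGFP+ groups. Over all 18193 genes, with 1 probe set each by the same rule, 1897 were higher and 1096 lower. No list was tested against that background. In the list of other origin and fork genes 22 of 31 were higher and 0 lower, with a median of 0.91. Its largest were Dscc1, part of an alternative clamp loader, at 3.65, the checkpoint adaptor Clspn at 3.04 and the nuclease helicase Dna2 at 2.78. Their further probe sets were also called but gave less, at 0.90 for Dscc1, 1.34 for Clspn, and 1.74 and 0.55 for Dna2. Among genes of replication-coupled chromatin 7 of 8 were higher and 0 lower (median 1.48), led by Uhrf1, which guides maintenance methylation, at 3.19, the helicase Hells at 2.53 and the histone chaperone Asf1b at 2.47. Further probe sets gave 2.83 for Uhrf1, and 0.85 and 0.97 for Hells. Of the other E2F and retinoblastoma family genes 6 of 12 were higher and 0 lower (median 0.64), with E2f7 at 2.50, the dimer partner Tfdp1 at 1.78 and E2f3 at 1.34. Other nucleotide supply genes split, with 8 of 15 higher and 2 lower (median 0.86). The folate enzymes Shmt1 and Shmt2 were higher by 1.86 and 1.14 and the deaminase Dctd by 1.11. Further probe sets of Shmt1 gave 1.49, 0.60 and 1.17, all called. Those of Shmt2 gave 1.25, which was called, and 0.48 and 0.04, which were not. In contrast, the mitochondrial thymidine kinase Tk2 was lower, with a difference of -0.97 beside the 3.24 of Tk1, and the nucleotide hydrolase Samhd1 differed by -0.71.

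Repair lists gave different counts, described here with no test between them or against all genes, of which 1897 of 18193 were higher and 1096 lower. The lists are short, so counts of 1 or 2 genes do not set them apart. Homologous recombination had 15 of 24 higher and 0 lower (median 0.89), with Rad54l at 2.65 and Eme1 at 2.18 among them. Further probe sets of Rad54l gave 2.21, 1.97 and 0.36, the last not called. Mismatch repair had 2 of 5 higher and 0 lower (median 0.29), the nuclease Exo1 at 3.14, of whose further probe sets 1 gave -0.04, and Pms1 at 0.75. Base excision repair had 4 of 13 higher and 1 lower (median 0.23), with the glycosylase Neil3 at 1.52, Parp1 at 0.61 and the related glycosylase Neil1 at -0.52. Further probe sets of Parp1 gave 0.62, 0.65 and -0.34, the last not called. End joining had 2 of 6 higher and 0 lower (median 0.19), both of them Ku subunits, Xrcc6 at 0.87 and Xrcc5 at 0.50, and a further probe set of Xrcc6 gave 0.02. Translesion synthesis had 3 of 8 higher and 2 lower (median 0.23), with Polh at 0.98, Mad2l2 at 0.93 and Rev1 at -0.66. Further probe sets of Polh gave 1.06, 0.68 and 0.27, the last not called. Nucleotide excision repair had 0 of 13 higher and 2 lower in limma (2 higher and 3 lower at an unadjusted p under 0.05, beside 12.8% and 12.1% of all probe sets). Its median was -0.06, and the lower genes were the damage sensors Xpc at -0.83 and Ddb2 at -0.80.

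Other checkpoint genes also split, with 4 of 12 higher and 2 lower (median -0.02), beside 1897 and 1096 of all 18193 genes. The phosphatase Cdc25a, the kinase Chek2 and the kinase Wee1 were higher by 1.19, 1.13 and 1.02, while the damage mediator Mdc1 and the kinase Atm differed by -0.80 and -0.61. Further probe sets of Cdc25a gave 1.25 and 0.26, the last not called. Calls near the threshold moved with single arrays. Of the 82 pathway genes called, 73 higher and 9 lower, 61 were called without replicate 1 of WT EGFP+, with 3 of them lower. The lower calls numbered 4 without replicate 3 of WT EGFP+ or replicate 1 of delta EGFP+, 5 without replicate 2 of delta EGFP+, and 5 with the title number series as a block. Under every alternative 56 of the 73 higher genes kept their call and 3 of the 9 lower ones, Xpc, Tk2 and Samhd1. The calls of Atm, Mdc1, Neil1, Ddb2 and Rev1, and among the higher genes named of Pms1, Xrcc6, Xrcc5, Polh and Wee1, were lost under at least 1 alternative, with adjusted p up to 0.13. For scale, 29 of 29 mitosis genes were higher (median 2.85), and 2 of 7 reference genes were higher and 0 lower (median -0.06), Pgk1 at 1.07 and Hprt at 0.64.

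Members with and without an E2F match were set side by side for the EGFP+ comparison. Of the 15 with a match 12 were called higher, with a median difference of 1.67, and of the 26 without one 24 were called higher, with a median of 1.90. Both sets spanned nearly the whole range, from 0.36 for Msh6 to 2.91 for Cdc6 with a match and from 0.22 for Rpa1 to 3.24 for Tk1 without.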

How the data were processed

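RNA from sorted CD4+ T cells was hybridised to 8 Affymetrix arrays, 1 per sample. The authors deposited RMA values, according to the submitters' processing notes. Each is a linear intensity for a probe set. RMA corrects background, normalises by quantiles and summarises probes. Its version, scan dates and detection calls were not used here.

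From these deposited intensities log2 was taken without a pseudocount. Of 45101 probe sets 64 controls were left out, and 34945 named 1 gene. A mean per group was fitted to all 8 arrays with limma 3.58.1 in R 4.3.3 (two-sided tests, Benjamini-Hochberg adjustment, threshold 0.05), with 4 residual and 3.72 prior degrees of freedom. The code was tested on simulated data. Members and lists were chosen with earlier results of these data known. Values per array were given for the largest 2 and the smallest difference in each role and for members that missed the threshold, and pathway lists by up to 3 genes past it, of which 1 is not reported here. Tyms, Pole2 and Blm, and the lower genes named beside a list's largest, were named after their values were seen. Alternatives were a low-intensity filter, a pseudocount of 16, renormalization, centring, an intensity trend, the mean of a gene's probe sets, single arrays left out and a block.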

Additional observations from a re-analysis of the deposited data

How the results depend on the processing

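Of the 43 members called between the EGFP+ groups, 41 were called under every alternative in which they were tested, and Orc6 and E2f2 were not. Tyms was below the low-intensity filter and so was not tested there, which leaves 42 calls under the filter. The count ranged from 41 to 46. The median difference of 1.79 became 1.45 with the mean of all probe sets of a gene and 1.58 without WT EGFP+ replicate 2 and delta EGFP+ replicate 3 together. With single arrays left out it ran from 1.59 (without WT EGFP+ replicate 2) to 1.93. Of the 147 pathway genes 82 were called there, and 61 to 84 with single arrays left out, with 3 to 8 lower. For WT EGFP+ against WT EGFP-, 0 to 5 members were called with single arrays left out and 7 without the pair. Of the pathway genes 0 to 3 were called with single arrays left out, 7 without the pair, and 1 each with a pseudocount of 16 and with an intensity trend. For delta EGFP+ against delta EGFP-, 1 member and 1 pathway gene were called with the mean of probe sets, and 1 and 1 without the pair. The cause of these changes was not tested. Fewer arrays entered only in the settings with arrays left out. No member changed sign between the EGFP+ groups. In the comparisons with an EGFP- array, where no member was called, differences near 0 did so 30 times over 19 member comparisons, with adjusted p of at least 0.86. For WT EGFP+ against WT EGFP-, the values with single arrays left out ran from -0.08 to 0.40 for Cdt1, -0.01 to 0.40 for Mcm5, -0.07 to 0.14 for Mcm7, -0.03 to 0.30 for Cdc45, -0.11 to 0.23 for Rfc5, -0.14 to 0.39 for Chek1 and -0.15 to 0.12 for Ccne1. With the mean of probe sets Cdc45 was -0.02 and Pold1 0.05. For delta EGFP+ against delta EGFP-, Pole2 ran from -0.19 to 0.20 and was 0.04 with the block. The interaction ran from -0.71 to 0.04 for Cdc6, -0.13 to 0.25 for Gmnn, -0.15 to 0.07 for Mcm6, -0.22 to 0.08 for Pcna, -0.08 to 0.38 for Lig1, -0.12 to 0.30 for Rrm1, -0.43 to 0.03 for Tk1, -0.08 to 0.34 for Brca1 and -0.17 to 0.03 for Msh6. Without the pair it was -0.15 for Lig1, -0.18 for Rrm1, -0.17 for Brca1 and 0.06 for Msh6. It was 0.05 for Mcm6 with the mean of probe sets and 0.06 for Ccne2 with a pseudocount of 16. The median interaction was 0.25 without the pair. The sample titles carry number series, shared by EGFP+ arrays of the same replicate number. Over all probe sets, arrays of a series did not deviate together (correlations 0.12, 0.05 and -0.10 between the EGFP+ groups). The mean of the 48 genes did keep the same array order in both groups. It was 8.21, 7.92 and 8.40 in WT EGFP+ and 9.93, 9.87 and 10.02 in delta EGFP+. The part of the series in this order was not tested. A replicate block on these numbers called 43 members. The EGFP- comparisons rest on 1 array a group. A WT EGFP+ mean below the median of all probe sets limits Tyms and Ccne2. The same limit holds for Dscc1, E2f7, Exo1, Neil3, Chek2 and Dctd among the pathway genes named.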
